A study of Mus musculus with 8 samples.

Results

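Integrins are the adhesion receptors through which cells hold matrix and other cells, and 7 of their subunit genes are described here together with Vcam1, a cell-surface ligand: Itga4, Itgb1, Itgb7, Itga9, Itga5, Itgav, Itga3 and Vcam1. Itga4 was selected on its measured fold, a fall between the groups of this dataset, and the others were added as its binding partners, its ligand and further subunits. All 8 were found among the 25913 genes of the count table, and all 8 were among the 17381 genes with enough reads to be tested. Because Itga4 was chosen for its fold change, its values are a description and carry no test.

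The tissue was dissected olfactory epithelium of 40-week-old C57BL/6J mice, and the study addressed deletion of Igf1r, the insulin-like growth factor 1 receptor, from olfactory sensory neurons. One group holds 4 libraries titled IGF1R_flfl (1, 2, 13 and 3) and the other 4 titled OMP_IGF1R (11, 12, 17 and 18). The OMP name refers to olfactory marker protein, made by mature olfactory neurons. The genotype field runs against the titles: libraries titled IGF1R_flfl carry "OMPIGF1 (KO)" and those titled OMP_IGF1R carry "OMPflfl (Ctrl)". Groups are named by title throughout, values of single libraries are listed in the order just given, every fold is OMP_IGF1R over IGF1R_flfl on a log2 scale, and which group lacks the receptor is not settled by the labels. Igf1r itself was at 66.5 ± 7.65 CPM (counts per 1000000 counts of the scaled library; SD, n = 4) in the libraries titled IGF1R_flfl and 42.1 ± 6.32 CPM (SD, n = 4) in the others, which is a log2 fold of -0.66 (edgeR quasi-likelihood test, adjusted p = 0.0117). Library numbers in the titles run from 35138 to 35141 in one group and 35156 to 35159 in the other, so any order of handling cannot be told apart from the group. The labels do not tie each library to its own animal, and p-values here rest on library-to-library spread, which may be technical.

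An integrin is a pair of one alpha and one beta chain, and the pair decides what is bound. The alpha4 chain joins beta1, as VLA-4, or beta7, and binds VCAM-1 and fibronectin. It is best known from leukocytes, which use it to leave blood vessels, and its short tail binds the adaptor paxillin. The alpha9 chain, its closest relative, pairs with beta1, alpha5 with beta1 makes the classical fibronectin receptor, alphav receptors recognise the RGD motif of matrix proteins, and alpha3 with beta1 binds laminin.

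Total counts ran from 18802471 to 27793375 per library. Of all tested genes, 8.20% were called different at an adjusted p under 0.05, 2.83% higher and 5.37% lower in OMP_IGF1R, and 23.5% were at an unadjusted p under 0.05. The 4 values of one group lay wholly above or below those of the other for 16.9%. The median fold over all tested genes was -0.01. Markers of other tissues stood out in single libraries: the summed level of olfactory bulb and oligodendrocyte markers was 1535 CPM in IGF1R_flfl 2 and 114 to 157 CPM in the other 7 libraries, and that of skeletal muscle markers was 506 CPM in OMP_IGF1R 17 and 4.96 to 15.9 CPM elsewhere.

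Itga4 (ENSMUSG00000027009) lies on the plus strand of mouse chromosome 2, at 79255426 to 79333123 in GRCm38, and its annotated exons merge into 27 blocks. The IGF1R_flfl group held 51.3, 56.8, 46.6 and 49.6 CPM, and the OMP_IGF1R group 30.4, 28, 31.3 and 29.8 CPM. The groups did not overlap, and the lowest library titled IGF1R_flfl stood well above the highest titled OMP_IGF1R. The means were 51.1 ± 4.31 CPM (SD, n = 4) and 29.8 ± 1.4 CPM (SD, n = 4), a ratio of 0.585, from 1025 to 1491 reads per library in the first group and 595 to 776 in the second. The fitted log2 fold change was -0.78 (SE 0.0695). It was -0.73 when IGF1R_flfl 2 and OMP_IGF1R 17, the libraries with bulb and muscle RNA, were both left out. Among all tested genes, 523 (3.01%) had a lower fold.

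**Figure D1:**
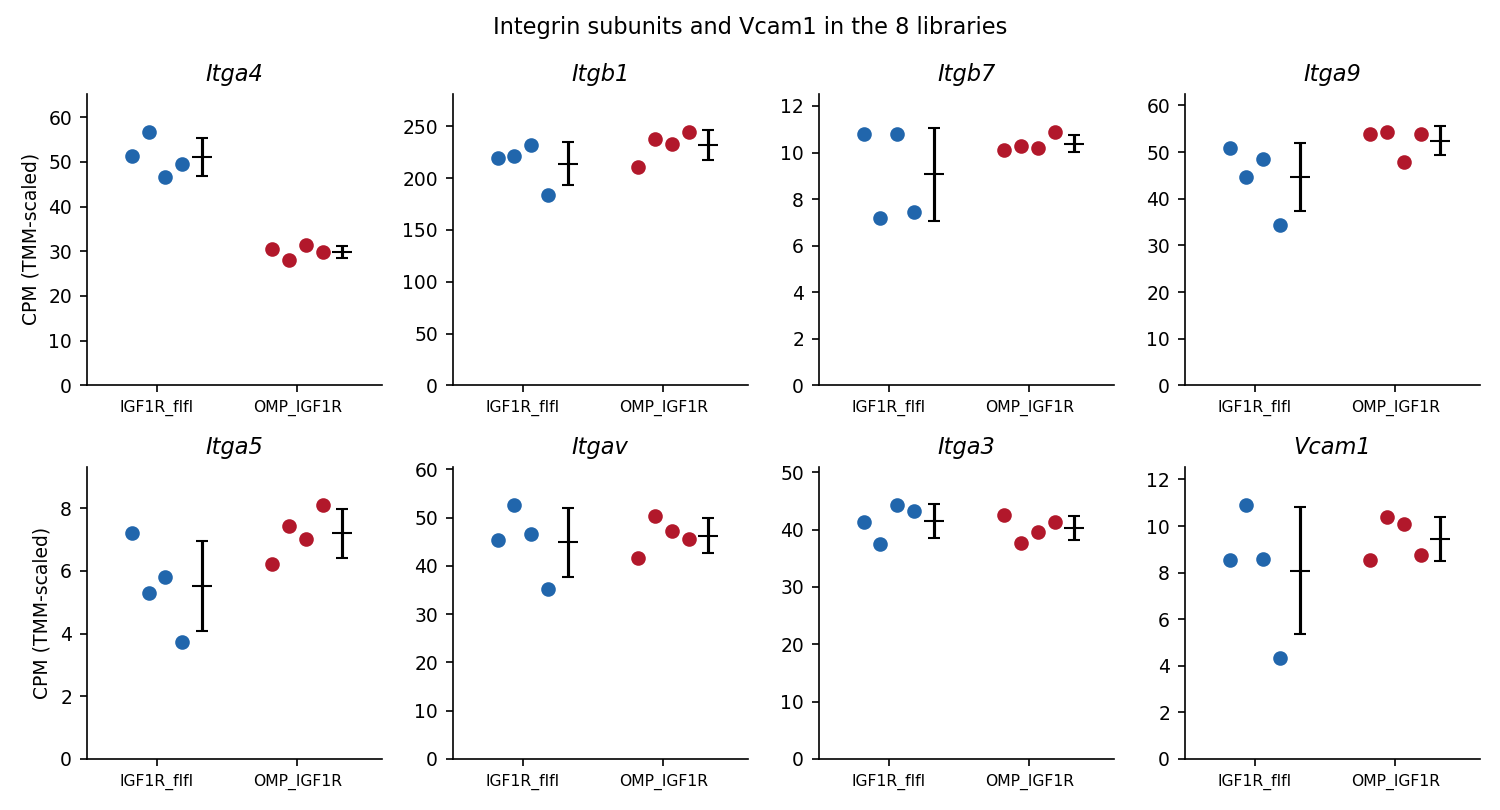
Normalised level (CPM) of the 8 genes in each library, 1 point per library and 1 panel per gene, with the mean (short line) and SD (whiskers) of each group beside its points. Itga4 is the panel whose groups are separate (46.6 to 56.8 against 28 to 31.3 CPM), and the values of the other 7 genes overlap between groups.

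The promoter window of Itga4 is shown because it holds the one motif searched, CCCNNGGG, the core of the site bound by the Ebf (Olf-1) factors of olfactory neurons. The RefSeq window covers 250 bases before to 50 after the start, at chr2:79255176-79255475 on the plus strand of GRCm38.p6, and is written 5′ to 3′ with the match in capitals. The match begins 225 bases upstream of the start. The window of Itgb7, on the minus strand at chr15:102231886-102232185, is printed for comparison, since it held the only other match among the windows searched, 14 bases upstream.
Itga4: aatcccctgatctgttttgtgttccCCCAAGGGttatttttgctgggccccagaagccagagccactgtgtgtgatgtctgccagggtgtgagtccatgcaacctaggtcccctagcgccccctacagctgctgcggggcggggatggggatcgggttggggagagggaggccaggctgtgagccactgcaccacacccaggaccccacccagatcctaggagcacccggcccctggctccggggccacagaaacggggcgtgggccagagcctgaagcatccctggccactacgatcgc
Itgb7: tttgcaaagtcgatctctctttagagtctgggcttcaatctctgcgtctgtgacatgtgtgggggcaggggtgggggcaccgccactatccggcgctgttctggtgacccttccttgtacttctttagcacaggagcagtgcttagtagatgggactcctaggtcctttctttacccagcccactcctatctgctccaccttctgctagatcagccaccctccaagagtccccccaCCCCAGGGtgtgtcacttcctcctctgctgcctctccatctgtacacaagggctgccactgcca
Windows were found for 7 of the 8 genes, and no entry was matched for Vcam1. That of Itga9 starts from a site 105002 bases inside the bounds of the gene in the count table, so the outermost start of Itga9 was not searched. The motif reads the same on both strands, and 13.7% of the 32851 windows in the table held it. Counted by gene, 15.4% of the 27025 genes with a window had a match, as did 8 of the 14 mature olfactory neuron markers with a window. These are matches of letters only, and binding was not measured.

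The RNA is that of a whole tissue, so fewer cells of a type and less RNA per cell cannot be told apart. Of 17 mature olfactory neuron markers, 16 fell and none rose by edgeR, where 5.37% of all tested genes fell and 2.83% rose. The median fold of these markers was -0.66. Their summed level was 16709.8 to 23122 CPM in IGF1R_flfl and 10091 to 11614 CPM in OMP_IGF1R. Set against that sum within each library, Itga4 was at 2.66, 3.4, 2.64 and 2.14 CPM per 1000 CPM of markers against 2.78, 2.77, 2.69 and 2.86. On this ratio the groups overlapped, with means of 2.71 ± 0.518 and 2.78 ± 0.0691 (SD, n = 4 each). Omp, the marker that fell by 1.45 on the log2 scale, weighs on the sum. Without Omp the ratio was 3.71, 4.64, 3.64 and 3.02 against 3.46, 3.33, 3.32 and 3.48. The means were 3.75 ± 0.667 and 3.4 ± 0.0848 (SD, n = 4 each). The groups again overlapped, but only through IGF1R_flfl 3, the lowest of its group. The part of the mature neuron markers in the fall of Itga4 was not tested.

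The 3′ end of Itga4 overlaps Cerkl, the ceramide kinase-like gene, which runs on the minus strand from 79330543 to 79456785. The overlap is 2581 bases long, and 1124 of them are exonic in both genes in GENCODE M21. Whether reads were counted by strand is not given in the sources used here, so reads in the overlap cannot be assigned to one gene with certainty. Cerkl was at 21.2, 19.7, 17.2 and 20.1 against 13.8, 12.4, 12.3 and 12.6 CPM. The groups did not overlap, and the fold was -0.62 (SE 0.0848, edgeR adjusted p = 0.00525).

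The nearest tested genes on either side were not called lower. Ube2e3, a ubiquitin-conjugating enzyme whose gene ends 334133 bases upstream of Itga4, had a fold of -0.02 (SE 0.0647; 95% interval -0.16 to 0.13; edgeR adjusted p = 0.914), and the sign turned to 0.02 with upper-quartile scaling and 0.01 with limma voom. Neurod1, a transcription factor of neuronal differentiation, starts its span 119398 bases beyond the end of Itga4, within the outer bounds of Cerkl. It rose from 10.7 ± 1.12 to 21.9 ± 3.67 CPM (SD, n = 4 each), a fold of 1.03 (SE 0.130, edgeR adjusted p = 0.00402). Within 3 Mb of Itga4, a window chosen after the values were seen, 20 other genes were tested. Cerkl was called lower, Neurod1 was called higher, and the median fold of the 20 was -0.03.

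**Figure D2:**
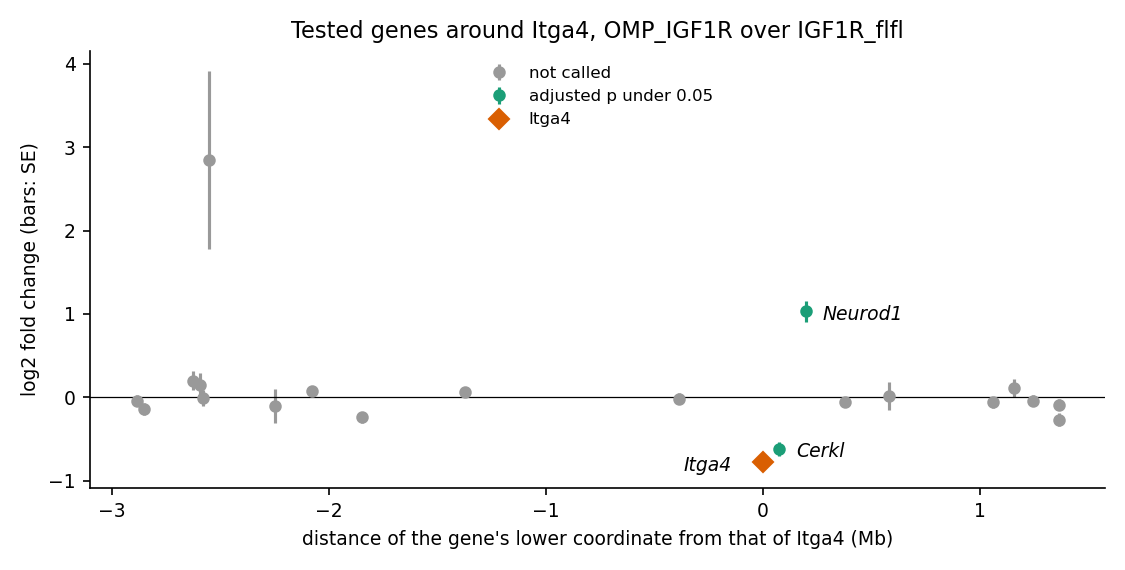
Fold (log2, OMP_IGF1R over IGF1R_flfl, with its SE) of each tested gene within 3 Mb of Itga4, against the distance of its lower coordinate from that of Itga4 in Mb. Itga4 (-0.78) and Cerkl (-0.62) lie together below 0, Neurod1 (1.03) lies above, and the point with the widest error is Ttn, a muscle gene at 2.85 (SE 1.07).

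Neither beta chain that pairs with alpha4 was called. Itgb1 (ENSMUSG00000025809; chromosome 8, 128685654 to 128733200, plus strand), the common partner of many alpha chains, was at 219, 221, 232 and 184 against 211, 238, 233 and 245 CPM. The groups overlapped, and the fold was 0.12 (SE 0.0817; 95% interval -0.07 to 0.30; edgeR adjusted p = 0.437). Itgb7 (ENSMUSG00000001281; chromosome 15, 102215995 to 102231935, minus strand), a chain found mainly on lymphocytes, was at 10.8, 7.2, 10.8 and 7.45 against 10.1, 10.3, 10.2 and 10.9 CPM. Its libraries titled IGF1R_flfl lay in a high and a low pair, with the 4 others between or just above, and the fold was 0.19 (SE 0.150; 95% interval -0.14 to 0.53; edgeR adjusted p = 0.483).

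The ratio of Itga4 to each of these partners was then taken within each library. Itga4 per Itgb1, a ratio of CPM values, was 0.24 ± 0.0302 in IGF1R_flfl and 0.129 ± 0.012 in OMP_IGF1R (SD, n = 4 each). Itga4 per Itgb7 was 5.9 ± 1.67 and 2.89 ± 0.188 (SD, n = 4 each). Neither ratio overlapped between groups, and both carry the fall for which Itga4 was chosen.

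Itga9 (ENSMUSG00000039115; chromosome 9, 118606690 to 118901003, plus strand), the relative of alpha4, was at 50.9, 44.7, 48.6 and 34.4 against 53.8, 54.4, 47.9 and 53.8 CPM. The groups overlapped through OMP_IGF1R 17, and the fold was 0.23 (SE 0.111; 95% interval -0.01 to 0.48; edgeR adjusted p = 0.240). The gene overlaps the predicted gene Gm2415 over 10929 bases, 0 of them exonic in both. In CPM, without regard to gene length, Itga4 and Itga9 were at similar counts in IGF1R_flfl (a ratio of 1.17 ± 0.228). Itga4 was the lower in all 4 libraries of OMP_IGF1R (a ratio of 0.571 ± 0.0588, SD, n = 4 each). This ratio too carries the fall for which Itga4 was chosen.

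Vcam1 (ENSMUSG00000027962; chromosome 3, 116110020 to 116129688, minus strand), the immunoglobulin-family ligand of alpha4 and alpha9 integrins, was at 8.55, 10.9, 8.58 and 4.32 against 8.52, 10.4, 10.1 and 8.76 CPM. Apart from the low IGF1R_flfl 3, the libraries of both groups shared one range. Its fold was 0.23 (SE 0.236; 95% interval -0.30 to 0.76; edgeR adjusted p = 0.614), and it was 0.02 without IGF1R_flfl 3.

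The remaining alpha chains also overlapped between groups. Itga5 (ENSMUSG00000000555; chromosome 15, 103344289 to 103366763, minus strand), of the fibronectin receptor, was at 7.21, 5.3, 5.81 and 3.73 against 6.22, 7.42, 7.03 and 8.1 CPM. Only IGF1R_flfl 1 reached into the range of the other group, and the fold was 0.39 (SE 0.189; 95% interval -0.04 to 0.81; edgeR adjusted p = 0.255). Itgav (ENSMUSG00000027087; chromosome 2, 83724397 to 83806916, plus strand), the alphav chain, was at 45.3, 52.6, 46.5 and 35.3 CPM against 41.7, 50.4, 47.3 and 45.5 CPM. The groups lay within one range, with a fold of 0.04 (SE 0.112; 95% interval -0.21 to 0.29; edgeR adjusted p = 0.860) whose sign turned without IGF1R_flfl 3 (-0.05) and, to just under 0, without OMP_IGF1R 12. Itgav lies on the same chromosome as Itga4 and shares 634 exonic bases with the predicted gene Gm13684, which had too few reads to be tested. Itga3 (ENSMUSG00000001507; chromosome 11, 95044474 to 95076801, minus strand), the laminin-binding chain, was at 41.3, 37.5, 44.3 and 43.2 CPM against 42.5, 37.7, 39.6 and 41.3 CPM. It had the narrowest interval of these genes, with a fold of -0.05 (SE 0.0661; 95% interval -0.19 to 0.10; edgeR adjusted p = 0.728).

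In all, 0 of the 7 genes other than Itga4 were called by edgeR, against 8.20% of all tested genes, and 0 by DESeq2 or limma voom. At an unadjusted p under 0.05 the count was also 0, against 23.5% of all tested genes. Counts of 0 among 7 genes do not show that these genes were unchanged. One library weighs on their folds: IGF1R_flfl 3 was the lowest of all 8 for 5 of these 7 genes (Itgb1, Itga9, Itga5, Itgav and Vcam1), and it was the lowest for 22.7% of all tested genes. The same library had the highest summed mature neuron markers (23122 CPM) and the lowest summed fibroblast markers (1989 CPM, against 2619 to 2669 CPM in the other 3 of its group). Without it the folds were 0.06 for Itgb1, 0.12 for Itgb7, 0.13 for Itga9, 0.24 for Itga5 and -0.02 for Itga3, while Itga4 was at -0.78 with and without it. The part of the cell makeup of this library in those folds was not tested.

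Levels of different genes were compared as CPM per kilobase of merged exons. Itgb1 was by far the most abundant, at 52.5 ± 5.12 in IGF1R_flfl (SD, n = 4). It was followed by Itga3 at 7.28 ± 0.528, Itga9 at 5.81 ± 0.95, Itgav at 4.18 ± 0.667, Itga4 at 3.65 ± 0.308 and Itgb7 at 3.27 ± 0.721. Itga5 at 1.12 ± 0.291 and Vcam1 at 0.912 ± 0.309 were lowest. Library values overlapped between Itga3 and Itga9, Itga9 and Itgav, Itgav and Itga4, Itga4 and Itgb7, and Itga5 and Vcam1, so the order of these neighbours is not resolved. In OMP_IGF1R, Itga4 stood at 2.14 ± 0.1, below Itgb7 at 3.74 ± 0.13 and above Itga5 at 1.46 ± 0.159 (SD, n = 4 each), with no overlap on either side, and Itga3 (7.05 ± 0.366) overlapped Itga9 (6.83 ± 0.4) and Itgav (4.3 ± 0.338) overlapped Itgb7. The choice of length matters here. With the longest coding transcript in place of merged exons, the mean of Vcam1 in IGF1R_flfl was 2.33 ± 0.79, above Itga5 at 1.26 ± 0.328. Their library values overlapped (1.25 to 3.14 against 0.851 to 1.64), so that order is not resolved. In OMP_IGF1R, Vcam1 overlapped Itga4 (2.46 to 3.01 against 2.86 to 3.2). By merged exons the mean of Itga4 went from place 5 to 6 of the 8 genes. Among the 26 integrin subunit genes it went from place 10 to 14. Next to it there were Itgb8 at 3.32 ± 1.2 in IGF1R_flfl and Itga11 at 2.09 ± 0.236 in OMP_IGF1R (SD, n = 4 each). Places among the 26 are therefore not exact, and the shifts carry the fall for which Itga4 was chosen.

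The other 19 integrin subunits gave a background for the family. Itgad was too low to test, and of the 18 tested 1 rose and none fell by edgeR, where 2.83% of all genes rose and 5.37% fell. The DESeq2 and limma voom fits also called none lower, and 3 were at an unadjusted p under 0.05, as were 23.5% of all tested genes. Folds ran from -0.08 (Itga11) to 0.54 (Itgae), 17 of 18 were above 0, and the median was 0.17, against -0.01 over all tested genes. The number above 0 was 17 under both other scalings and 16 with limma voom. IGF1R_flfl 3 was the lowest library for 13 of the 18 (72.2%), and without it 14 of 18 were above 0 and the median fold was 0.06.

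Itgb4, the partner of alpha6 in hemidesmosomes, was the subunit that rose. It went from 34.4 ± 1.98 to 42.1 ± 1.34 CPM (SD, n = 4 each), a fold of 0.29 (SE 0.0569, edgeR adjusted p = 0.0163) that no longer passed without OMP_IGF1R 18 (adjusted p = 0.0619). Horizontal basal cells, the reserve stem cells anchored by such junctions, had 3 of 10 markers higher (Krt17, Dsc3 and Lamb3) and none lower. Of all tested genes, 2.83% rose and 5.37% fell. On leaving out each library the count of higher markers ran from 0 to 4. It was 0 without IGF1R_flfl 1 or OMP_IGF1R 18 and 1 without OMP_IGF1R 12. The summed level of the 10 markers was 677 to 804 CPM in IGF1R_flfl and 812 to 1010.1 CPM in OMP_IGF1R. Their part in the rise of Itgb4 was not tested. Among alpha chains, Itgax, of dendritic cells and macrophages, had the smallest p (fold 0.45, SE 0.127, edgeR adjusted p = 0.0594), and Itga2b, of platelets, came next (fold 0.27, SE 0.0773, edgeR adjusted p = 0.0664). Itgax, Itga2b and Itgae (fold 0.54, SE 0.292, edgeR adjusted p = 0.3) had groups that did not overlap. These were 3 of the 12 other alpha chains tested, where 16.9% of all tested genes did not overlap.

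**Figure D3:**
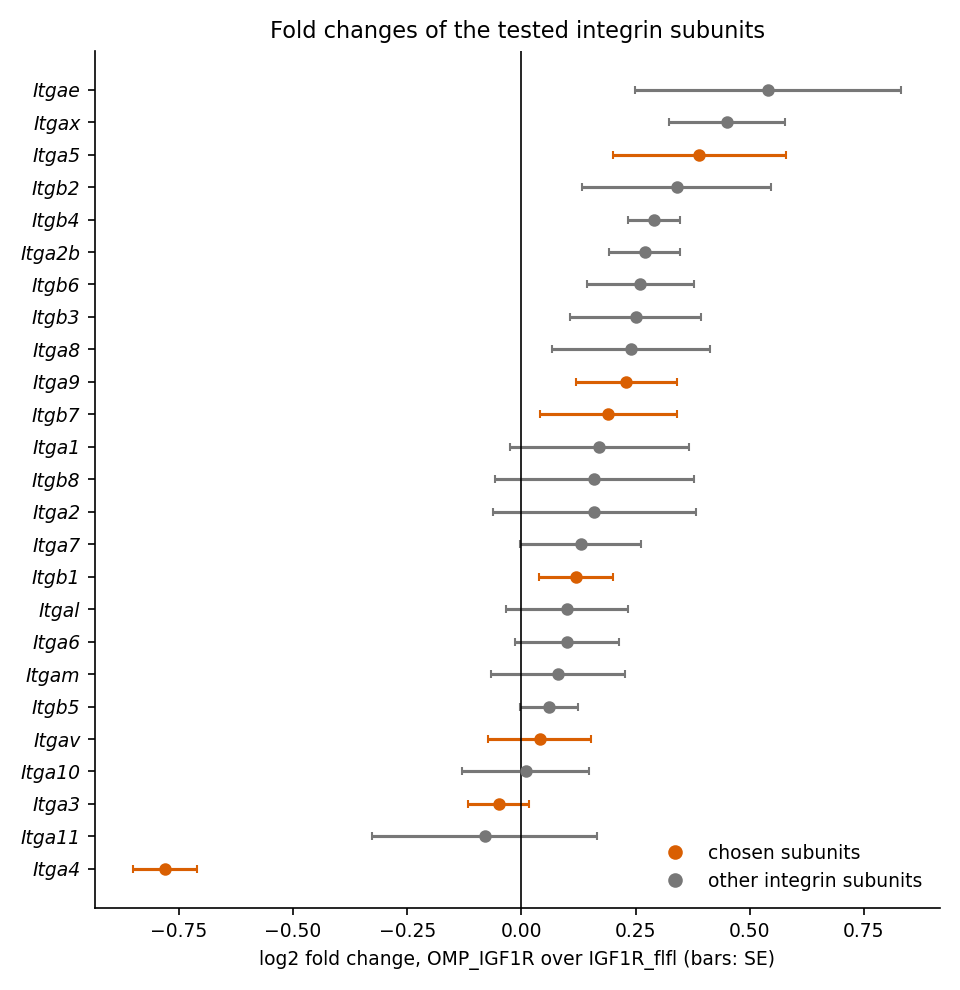
Fold (log2, OMP_IGF1R over IGF1R_flfl) of every tested integrin subunit, with its SE as a bar, the chosen subunits in orange and the others in grey; the line at 0 marks equal levels. Itga4 at -0.78 stands alone to the left, and the other points lie between -0.08 and 0.54.

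Ligands of the alpha4, alpha5, alpha9 and alphav integrins were listed next (22 genes, 19 tested). Of these 3 rose and none fell by edgeR, where 2.83% of all tested genes rose and 5.37% fell. DESeq2 and limma voom each called 1 ligand lower. The median fold of the 19 was 0.15, and 6 were at an unadjusted p under 0.05 (23.5% of all tested genes). Tgfb3, a latent growth factor that alphav integrins can release, went from 28 ± 2.35 to 38.2 ± 1.16 CPM (fold 0.45, SE 0.0671, edgeR adjusted p = 0.00704). Thbs1, thrombospondin-1, went from 122 ± 7.37 to 168 ± 16.5 CPM (fold 0.46, SE 0.0780, edgeR adjusted p = 0.0108). Ltbp1, which tethers latent TGF-beta to matrix, went from 21.1 ± 1.24 to 27 ± 2.1 CPM (fold 0.36, SE 0.0740, edgeR adjusted p = 0.0202), a call lost without OMP_IGF1R 12 or OMP_IGF1R 18 (up to 0.0708). Fn1, fibronectin, the matrix ligand of alpha4 and alpha5, was at 70.7 ± 14.6 and 80.6 ± 6.35 CPM and was not called (fold 0.19, edgeR adjusted p = 0.441). Spp1, osteopontin, a ligand of alpha9 and alpha4, was at 243 ± 43.8 and 312 ± 52 CPM and was not called either (fold 0.36, edgeR adjusted p = 0.192). Adam28 had the smallest p of the ligands with a fold below 0. It was at 233 ± 16.9 and 201 ± 9.5 CPM and was not called by edgeR (fold -0.21, SE 0.0673, edgeR adjusted p = 0.095). Madcam1, the gut ligand of alpha4 with beta7, was near 0 in all libraries and was not tested.

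Of the 11 laminin chains, which alpha3 and alpha6 integrins bind, 2 rose and none fell by edgeR, and 4 were at an unadjusted p under 0.05. Of all tested genes, 2.83% rose, 5.37% fell and 23.5% were at an unadjusted p under 0.05. The median fold of the chains was 0.12. Lamb3 (fold 0.40, edgeR adjusted p = 0.0210), which also stands in the horizontal basal cell list, and Lama1 (fold 0.56, edgeR adjusted p = 0.0311) were the ones called. Lama1 was lost on leaving out any library except IGF1R_flfl 2 (edgeR adjusted p up to 0.0916), and Lamb3 on leaving out IGF1R_flfl 1, OMP_IGF1R 11 or OMP_IGF1R 18 (up to 0.0704).

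Inside the cell, 42 adhesion proteins were listed, 41 were matched by symbol and 40 were tested. By edgeR 1 rose and 1 fell, where 2.83% of all tested genes rose and 5.37% fell. At an unadjusted p under 0.05 there were 8, against 23.5% of all tested genes, and the median fold was 0.10. Pxn, paxillin, the adaptor that binds the alpha4 tail, went from 54.3 ± 3.36 to 63.8 ± 3.23 CPM (SD, n = 4 each; fold 0.23, SE 0.0587, edgeR adjusted p = 0.0412). Git1, a scaffold that binds paxillin, went from 117 ± 8.79 to 92 ± 8.16 CPM (SD, n = 4 each; fold -0.34, SE 0.0770, edgeR adjusted p = 0.0272). Neither gene's groups overlapped, as for 16.9% of all tested genes. On leaving out each library the folds ran from 0.21 to 0.28 for Pxn and from -0.4 to -0.28 for Git1. Neither call held throughout. That of Pxn was lost on leaving out any library but IGF1R_flfl 13 and OMP_IGF1R 17 (edgeR adjusted p up to 0.130), and that of Git1 on leaving out IGF1R_flfl 1 or 3 or OMP_IGF1R 12, 17 or 18 (up to 0.0850). Talin (Tln1; fold 0.17, edgeR adjusted p = 0.176), vinculin (Vcl; fold 0.04, edgeR adjusted p = 0.814) and focal adhesion kinase (Ptk2; fold 0.12, edgeR adjusted p = 0.240), which link integrins to actin and signalling, were not called.

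Markers of leukocytes, from which alpha4 is best known, were counted beside these genes. Of all tested genes, 8.20% were called by edgeR and 23.5% were at an unadjusted p under 0.05. Few or no calls in lists this short do not show that these cells were unchanged. Of 11 tested T and NK cell markers, 0 were called by edgeR, 1 was higher by DESeq2 and 1 by limma voom, and 1 was at an unadjusted p under 0.05. Their summed level was 19.7 to 28 CPM in IGF1R_flfl and 27.3 to 32.1 CPM in OMP_IGF1R. Of 8 tested B and plasma cell markers 1 rose (Cd79b; fold 0.90, SE 0.218, edgeR adjusted p = 0.0351), with sums of 23.4 to 76.2 CPM and 52.8 to 94.2 CPM; that call was made without IGF1R_flfl 1 or 2 and lost without any other single library. Of 12 macrophage and monocyte markers, 0 were called by edgeR, DESeq2 or limma voom and 2 were at an unadjusted p under 0.05, with sums of 144 to 203 CPM and 196 to 219 CPM. Of 7 tested granulocyte and mast cell markers, 0 were called by edgeR or DESeq2, 1 was higher by limma voom and 0 were at an unadjusted p under 0.05, with sums of 13.5 to 50 CPM and 21.9 to 33.4 CPM. Median folds were 0.62 for T and NK cell markers (10 of 11 above 0) and 0.57 for B and plasma cells (8 of 8). They were 0.23 for macrophages and monocytes (11 of 12) and 0.03 for granulocytes and mast cells (4 of 7). The median over all tested genes was -0.01. IGF1R_flfl 3 had the lowest sum in each of these lists. The part of leukocytes in the level of Itga4 was not tested.

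Most RNA markers of younger neurons and precursor cells went the other way from Itga4. By edgeR, 2.83% of all tested genes rose and 5.37% fell. Of 12 immature olfactory neuron markers 9 rose and 1 fell (Hdac9), with summed levels of 891 to 988 CPM in IGF1R_flfl and 1363 to 1553 CPM in OMP_IGF1R. Of 9 globose basal and precursor cell markers 8 rose and none fell, with sums of 151 to 188 CPM and 256 to 322 CPM.

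The genes whose profile over the 8 libraries lay nearest to that of Itga4 were found by the root mean square (RMS) difference of centred log2 CPM values, where the profile of Itga4 itself has an RMS size of 0.394. They were AC132131.1 (0.0691), Mtap1a, a microtubule-associated protein of neurons (0.0767), Gpr158, an orphan G protein-coupled receptor (0.084), the olfactory receptor Olfr1484 (0.0851) and Cacna1a, a presynaptic calcium channel (0.0893). All 5 were lower in every library titled OMP_IGF1R, with folds from -0.83 (Cacna1a) to -0.68 (Mtap1a), which the choice by likeness fixes. The other 7 genes of the set were far down this list of 17380: Itga3 came at place 6200 and Itga5 last of them at 15603. These places restate that their folds did not follow the fall for which Itga4 was chosen.

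**Figure D4:**
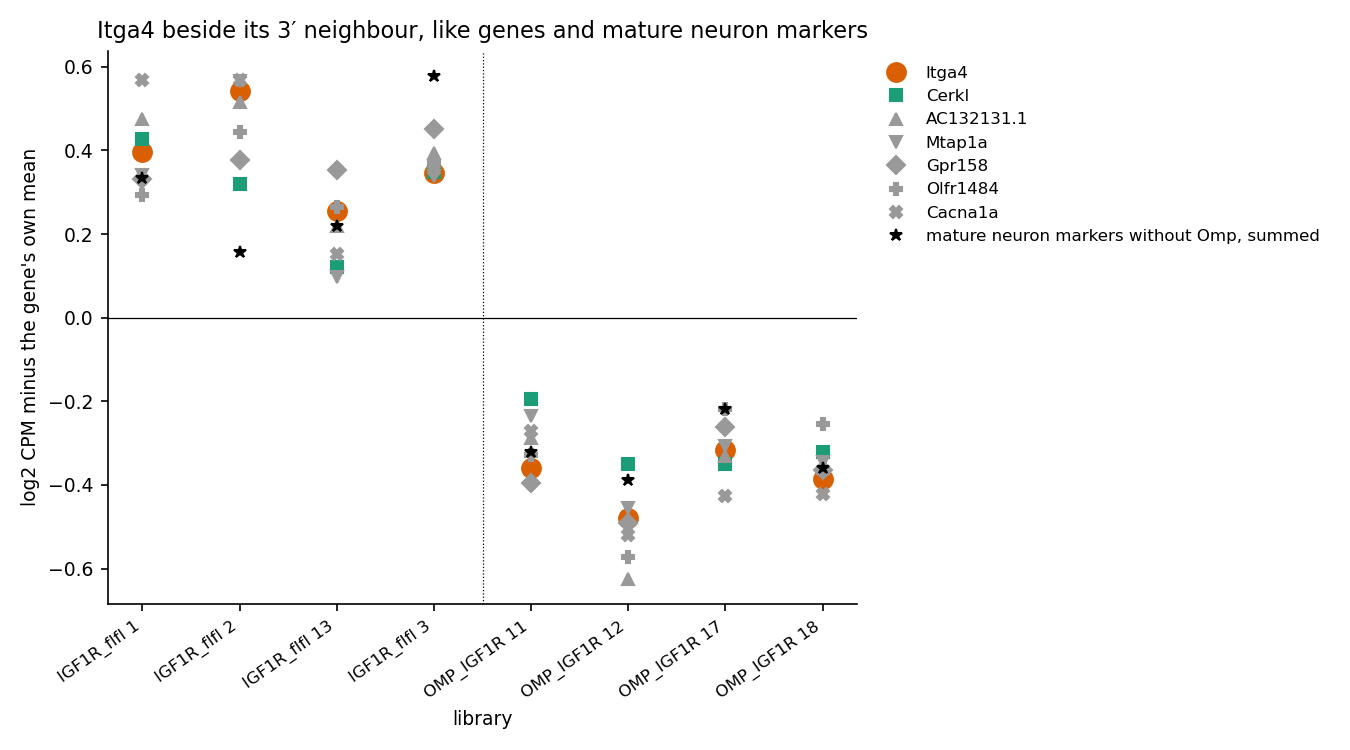
Centred log2 CPM of Itga4, Cerkl, the 5 genes nearest to Itga4 in profile and the log2 of the mature neuron markers summed without Omp, 1 point each in the 8 libraries. All points lie above 0 in the 4 libraries titled IGF1R_flfl and below 0 in the 4 titled OMP_IGF1R; the marker sum is highest in IGF1R_flfl 3 and Itga4 in IGF1R_flfl 2.

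The authors' deposited table gives log2 fold changes of the same sign for all 8 genes. In the authors' deposited table Itga4 is at -0.73 (SE 0.0778), Itga9 at 0.22, Itgb1 at 0.12, Itgb7 at 0.17, Itga5 at 0.30, Itgav at 0.05, Itga3 at -0.04 and Vcam1 at 0.16.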

How the data were processed

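Gene expression was measured by poly(A)-selected, stranded, paired-end RNA sequencing of 8 libraries, per the labels. The authors deposited raw counts of reads for each gene and library. The submitters' processing notes name the build GRCm38 (mm10) and the tools TopHat2 2.0.14, Trim Galore 0.3.7, SAMtools 1.2 and, without a version, DESeq2. How reads were counted, and with which strand setting, was not stated there. The authors' deposited comparison table holds mean normalised counts (signal), log2 fold changes with their errors, a test statistic (score) and adjusted p-values.

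Libraries were grouped by title. The 8 genes and all gene lists were chosen with earlier results of these data known. Description text was trimmed from 23 of the 25913 identifiers, and 25012 identifiers are in GENCODE M21, which gave exon lengths and overlaps. Counts were tested with edgeR 4.0.16 in R 4.3.3 (TMM scaling, filterByExpr, quasi-likelihood F-test, 1 term for group), with Benjamini-Hochberg adjustment over 17381 genes and a threshold of 0.05. CPM used TMM effective library sizes, and centred log2 CPM values used a prior count of 2. Intervals are 95% intervals of the fitted fold. Named genes were the 8 genes, and the called members and up to 4 members of smallest p of each list. The 5 genes nearest to Itga4 and its neighbours on the chromosome were also named. Fn1, Spp1, Madcam1, Adam28, Vcl, Ptk2, Itga11, Itgad, Hdac9 and Ttn were added after their values were seen. Total counts were 18802471 to 27793375 per library; Vcam1, Itga5 and Itgb7 rest on 94 to 297 reads per library and had the largest SEs of the 8 genes. Replicates of a group differed by a mean chi-square of 11.4 to 104 per gene, above sampling noise, so no library looked like a repeat deposit of another. Counts were simulated with 200 changed genes of 17286, drawn only from genes with an average log2 CPM above 1. The fit recovered 46% of the genes with a log2 change of 0.5 and 78% of those with a change of 1, with 4.6% false calls. In the data 1425 genes were called, so these recovery shares need not hold for them. Alternatives were other scalings and filters, DESeq2 1.42.0, omission of each library in turn, limma 3.58.1 voom with sample weights, and exon lengths of the longest coding transcript, the last chosen after seeing the data.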

Additional observations from a re-analysis of the deposited data

Results flagged for a closer look

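Within each group of 4 libraries, 1 value lay far from the other 3 in 10 of the 120 groups of values examined (Dixon's criterion at 95%); chance alone marks about 1 in 20. Among integrin genes, Itga9 was at 47.9 CPM in OMP_IGF1R 17 and at 53.8 to 54.4 CPM in the other 3 libraries titled OMP_IGF1R, and Itgb3 was at 7.06 CPM in IGF1R_flfl 3 against 9.75 to 10.3 CPM in the rest of its group. The laminin chain Lamb3 was at 34.9 CPM in OMP_IGF1R 12 against 39.3 to 40 CPM.

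The other marks were on summed marker levels. In IGF1R_flfl 3 the macrophage and monocyte markers summed to 144 CPM (193 to 203 CPM in the rest of the group) and the fibroblast markers to 1989 CPM (2619 to 2669 CPM). In IGF1R_flfl 2 the ensheathing glia markers summed to 918 CPM (216 to 306 CPM), the bulb and oligodendrocyte markers to 1535 CPM (114 to 125 CPM) and the muscle markers to 15.9 CPM (4.96 to 5.47 CPM). In OMP_IGF1R 17 the muscle markers summed to 506 CPM (5.16 to 8.37 CPM) and the horizontal basal cell markers to 1010.1 CPM (812 to 822 CPM).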

How the results depend on the processing

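The fold of Itga4 stayed between -0.81 and -0.71 on leaving out each library, and was -0.77 with DESeq2, -0.75 with limma voom and -0.74 with upper-quartile scaling. No call among the other 7 genes changed under any alternative run. Only Itgav changed sign among them (-0.05 to 0.14 on leaving out each library), as did the neighbour Ube2e3 (-0.05 to 0.03, and 0.02 with upper-quartile scaling and 0.01 with limma voom). DESeq2 called 804 genes higher, against 492 by edgeR; on leaving out each library the counts ran from 189 to 513 higher and 380 to 964 lower, against 933 lower with all 8. Other alpha subunits called higher numbered 1 with upper-quartile scaling, 2 with DESeq2 and 1 with limma voom, against 0; other beta subunits called higher ran from 0 to 1. For ligands, DESeq2 and limma voom called 1 lower, and leaving out each library gave 2 to 4 higher and 0 to 1 lower. Laminins called higher were 0 without IGF1R_flfl 2 and OMP_IGF1R 17, and 0 to 2 on leaving out each library. For adhesion proteins, limma voom called 2 higher, leaving out both libraries gave 0 lower, and leaving out each library gave 0 to 1 in either direction. The causes were not tested. With lengths of the longest coding transcript in place of merged exons, Itga4 kept places 5 and 6 of the 8 genes by mean. Vcam1 passed Itga5 in both groups and Itgav passed Itga9 in IGF1R_flfl. In IGF1R_flfl the library values of each of these pairs overlapped, so their order there is not resolved. No paired analysis was possible because the groups share no replicate number. Vcam1 and Itga5 rest on 94 to 286 reads per library, and their folds ran from 0.02 to 0.42 and from 0.24 to 0.54 on leaving out each library; counting error and library spread were not separated.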
